A study of Homo sapiens with 6 samples.

Results

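Natural antisense RNAs are transcripts read from the strand opposite another gene, and human gene symbols mark them by the suffix -AS and a digit after the name of the gene they lie against. They were selected on name and level: the entries whose symbol ends in that way and whose mean TPM over the 6 libraries was at least 1 TPM. TPM is a level relative to all transcripts of a library, corrected for length. No difference between the groups was used for this choice, but the levels that define it are those compared below. That left 269 antisense RNAs of 1247 entries so named and of 59050 entries in all. The gene named before the suffix is called the sense partner and serves for comparison.

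The libraries were bulk RNA-seq of HFF, a human fibroblast line, and fell into 2 groups of 3. Both groups carried ER:RAS (G12V), oncogenic H-RAS fused to the part of the oestrogen receptor that binds hormone, delivered with the vector pLNC packaged in HEK293T cells. Infection was done near passage 18 and was followed by neomycin at 200 µg/ml. The 4-OHT group was given 100 nM 4-hydroxytamoxifen, which activates the fusion protein, and was harvested 1 week later as cells in oncogene-induced senescence. The DMSO group carried the same fusion, is labelled DMSO in place of 4-OHT, and is also listed with 1 week to harvest. Unmodified cells and cells given 4-OHT without the fusion were not analysed here, and the number of resistant clones behind the stable lines is not stated. Nothing in the labels says whether the 3 libraries of a group came from separate cultures, so the p-values below measure only the spread between these libraries.

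Antisense RNAs can act on the gene they lie against, by recruiting chromatin proteins, by passing polymerases through its promoter or by pairing with its transcript, and others act far from it or have no known role. Many start close to the start of the partner and leave in the other direction, since many promoters fire both ways. CDKN2B-AS1, also called ANRIL, runs across the gene of the p15 inhibitor in the INK4 locus and is known to bind Polycomb proteins that silence that locus in dividing fibroblasts. OIP5-AS1, also called Cyrano, is known to bind microRNAs in the cytoplasm.

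4 pairs whose antisense RNA and partner are followed below are shown here by the 300 bases around each start, 250 before and 50 after it, 5′ to 3′, so that the RefSeq starts of a pair can be compared. Capitals mark a match to the E2F motif TTTCCCGC on either strand, and all other bases are in lower case. Sequences and positions are from RefSeq on GRCh38.p14. In the order printed, the windows are SH3RF3-AS1 (chr2:109130070-109130369, minus strand), SH3RF3 (chr2:109128955-109129254, plus strand), TMPO-AS1 (chr12:98516177-98516476, minus strand), TMPO (chr12:98515323-98515622, plus strand), SPRY4-AS1 (chr5:142325043-142325342, plus strand), SPRY4 (chr5:142324198-142324497, minus strand), CDKN2B-AS1 (chr9:21994541-21994840, plus strand) and CDKN2B (chr9:22009256-22009555, minus strand).
SH3RF3-AS1: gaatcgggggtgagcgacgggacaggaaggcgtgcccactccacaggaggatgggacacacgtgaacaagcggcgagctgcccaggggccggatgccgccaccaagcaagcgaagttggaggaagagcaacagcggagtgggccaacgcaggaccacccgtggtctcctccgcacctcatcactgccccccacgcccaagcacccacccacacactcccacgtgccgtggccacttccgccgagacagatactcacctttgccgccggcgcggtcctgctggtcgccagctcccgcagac
SH3RF3: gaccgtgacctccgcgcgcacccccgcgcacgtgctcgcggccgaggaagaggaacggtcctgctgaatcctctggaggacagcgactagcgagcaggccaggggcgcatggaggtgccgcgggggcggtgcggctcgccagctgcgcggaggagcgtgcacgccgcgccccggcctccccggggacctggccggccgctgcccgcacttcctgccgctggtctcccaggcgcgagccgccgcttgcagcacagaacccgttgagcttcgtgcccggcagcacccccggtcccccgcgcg
TMPO-AS1: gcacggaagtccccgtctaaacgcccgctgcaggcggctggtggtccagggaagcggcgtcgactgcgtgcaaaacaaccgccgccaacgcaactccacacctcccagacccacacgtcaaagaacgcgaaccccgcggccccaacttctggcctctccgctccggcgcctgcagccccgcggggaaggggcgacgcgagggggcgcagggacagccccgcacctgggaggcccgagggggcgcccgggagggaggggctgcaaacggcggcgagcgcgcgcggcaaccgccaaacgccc
TMPO: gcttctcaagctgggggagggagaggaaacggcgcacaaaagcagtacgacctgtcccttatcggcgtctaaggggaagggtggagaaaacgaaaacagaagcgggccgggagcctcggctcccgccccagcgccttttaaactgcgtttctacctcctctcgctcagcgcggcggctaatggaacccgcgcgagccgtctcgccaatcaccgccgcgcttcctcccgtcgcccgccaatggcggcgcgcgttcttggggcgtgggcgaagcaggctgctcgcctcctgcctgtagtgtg
SPRY4-AS1: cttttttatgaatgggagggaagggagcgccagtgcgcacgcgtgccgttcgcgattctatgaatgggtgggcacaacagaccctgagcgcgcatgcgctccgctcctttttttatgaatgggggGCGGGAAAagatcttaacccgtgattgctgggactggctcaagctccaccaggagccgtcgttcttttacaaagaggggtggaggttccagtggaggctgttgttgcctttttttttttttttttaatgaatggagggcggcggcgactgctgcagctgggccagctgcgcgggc
SPRY4: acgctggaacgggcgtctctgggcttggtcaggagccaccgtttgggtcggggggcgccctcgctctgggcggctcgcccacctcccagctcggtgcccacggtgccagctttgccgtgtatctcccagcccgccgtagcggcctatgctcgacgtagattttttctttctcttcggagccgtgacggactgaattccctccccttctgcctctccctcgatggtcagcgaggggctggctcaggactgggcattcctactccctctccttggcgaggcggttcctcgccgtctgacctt
CDKN2B-AS1: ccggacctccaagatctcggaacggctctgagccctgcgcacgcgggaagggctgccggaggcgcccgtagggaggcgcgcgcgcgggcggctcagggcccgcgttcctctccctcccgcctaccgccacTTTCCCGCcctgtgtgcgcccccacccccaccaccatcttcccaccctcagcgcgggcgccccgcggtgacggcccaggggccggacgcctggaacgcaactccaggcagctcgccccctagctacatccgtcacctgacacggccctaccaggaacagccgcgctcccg
CDKN2B: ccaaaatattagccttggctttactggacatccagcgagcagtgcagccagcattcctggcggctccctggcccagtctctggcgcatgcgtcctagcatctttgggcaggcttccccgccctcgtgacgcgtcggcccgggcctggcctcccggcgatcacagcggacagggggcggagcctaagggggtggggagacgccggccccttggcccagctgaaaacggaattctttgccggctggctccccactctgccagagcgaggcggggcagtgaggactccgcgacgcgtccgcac

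The RefSeq starts of antisense RNA and partner lay 914 bases apart for SH3RF3, 653 for TMPO, 1046 for SPRY4 and 14514 for CDKN2B, so the windows of a pair share no base. For SH3RF3-AS1 the annotations differ: the RefSeq start lies inside SH3RF3, while the GENCODE 29 start used for its position below lies before SH3RF3 and outside the window shown. All 8 windows are rich in G and C, with the lowest share in SPRY4-AS1 (55.7%) and the highest in SH3RF3 (76.0%), and hold between 20 and 42 CG pairs. Both strands of each window were searched for E2F (TTTCCCGC, TTTGGCGC), AP-1 (TGACTCA, which reads TGAGTCA on the other strand), ETS (CCGGAAG) and the cell cycle homology region, CHR (TTTGAA). No match overlapped another. The matches found were E2F motifs in SPRY4-AS1, on the minus strand 125 bases before the start, and in CDKN2B-AS1, on the plus strand 120 bases before the start. E2F motifs stood in 2.11% of the windows of the 190 antisense RNAs that RefSeq holds and in 2.27% of 27305 promoters of the same length. ETS motifs stood in 15.3% of the antisense windows and 10.6% of all promoters, AP-1 motifs in 5.26% and 5.04%, and CHR motifs in 5.79% and 15.6%. A match is a run of letters and not a bound site.

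Most antisense RNAs were scarce. Their means lay between 1.02 and 163 TPM with a median of 2.86 TPM; 32 reached 10 TPM and 15 reached 20 TPM. Of the 263 with a partner in the table, 50 stood above the partner's level, and the median antisense RNA stood at 14.6% of it. TPM keep no record of read depth, and a detection limit could not be given. GENCODE 29 placed 267 of them, 199 under its type antisense, 34 as processed transcripts and 25 as long intergenic RNAs. All 10 listed fibroblast markers reached 1 TPM in these libraries, with a summed level of 19101 to 19509 TPM in 4-OHT and 20227 to 20826 TPM in DMSO. That sum was mostly VIM, and single markers went both ways: COL3A1 averaged 477 ± 6.54 TPM in 4-OHT and 895 ± 5.35 TPM in DMSO, DCN 90.0 ± 9.49 TPM in 4-OHT and 186 ± 12.8 TPM in DMSO, and PDGFRB 269.8 ± 6.79 TPM in 4-OHT and 164 ± 11.1 TPM in DMSO (SD, n = 3). Listed markers of other cell types were low: 1 of 5 of keratinocytes and epithelium (sums of 0.579 to 0.779 TPM in 4-OHT and 1.45 to 1.70 TPM in DMSO), 1 of 5 of endothelium (1.38 to 1.82 TPM in 4-OHT and 2.47 to 2.57 TPM in DMSO), 2 of 6 of immune cells (59.7 to 67.3 TPM in 4-OHT and 60.1 to 90.5 TPM in DMSO, mostly CD68) and 2 of 5 of melanocytes (6.51 to 6.82 TPM in 4-OHT and 8.50 to 9.55 TPM in DMSO, with TYR and DCT at 0) reached a mean of 1 TPM.

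Which antisense RNAs differ between cells with active and inactive ER:RAS was asked first. With 4-OHT, 24 antisense RNAs rose and 80 fell, and 165 did not pass the test (limma on log2(TPM + 1), Benjamini-Hochberg over all 15272 genes of at least 1 TPM, threshold 0.05). A pair of values in parentheses after a gene is its log2 fold change in log2(TPM + 1), 4-OHT minus DMSO, and its adjusted p from limma, and ± is the SD of 3 libraries. The increases were led by SH3RF3-AS1 and the decreases by SERTAD4-AS1 and TMPO-AS1. Among all genes tested 49.6% were called, 19.8% higher and 29.9% lower. Of the antisense RNAs 8.92% were higher and 29.7% lower. Fewer cells that make an RNA and less of it per cell cannot be told apart in bulk samples.

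Genes at 1 to 10 TPM, the range in which 237 of the antisense RNAs lie, were called higher in 9.69% and lower in 29.2% of 6194. The 237 antisense RNAs of that range were called higher in 7.59% and lower in 29.5%. Of 123 long intergenic RNAs named LINC, 17.9% were higher and 27.6% lower. The share of antisense RNAs called is thus near that of other genes of their level, and no difference between these classes was tested. Changes of at least 1 log2 unit were reached by 6 that rose and 18 that fell, and by 4.22% and 8.21% of all genes tested. At 1 to 10 TPM they were reached by 4 and 17 of 237 antisense RNAs and by 273 and 694 of 6194 genes. In 26 antisense RNAs the 3 libraries of 4-OHT lay entirely above those of DMSO and in 99 entirely below, 46.5% in all. Of all genes tested 59% had groups that did not overlap (23.8% above and 35.2% below). Within 1 to 10 TPM the groups did not overlap in 46.0% of the antisense RNAs and 49.4% of the genes.

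The median log2 fold change (4-OHT minus DMSO) was -0.29 over the antisense RNAs, -0.23 over the intergenic RNAs and -0.09 over all genes tested. All genes tested have higher levels, with a median of 15.5 TPM. Within 1 to 10 TPM the median change was -0.31 over the antisense RNAs and -0.23 over the genes tested. The balance of directions depended on how libraries were scaled. Under median-of-ratios scaling, which shifted genes upward by a median of 0.113 log2 units, 27 antisense RNAs rose and 65 fell, with a median of -0.22. Of all genes 26.5% were then higher and 23.5% lower, with a median of 0.01. Quantile normalization gave 33 higher and 47 lower antisense RNAs, with a median of -0.10, and 23.9% higher and 23.6% lower among all genes. A mean of 1 TPM over 6 libraries admits RNAs through the group in which they are high: 35 stood below 1 TPM on average in 4-OHT and 8 in DMSO. Without these, 18 of 226 rose (7.96%) and 60 fell (26.5%), a setting chosen after seeing the data. The shares of all genes under that setting were not computed, so these counts do not set antisense RNAs apart from other genes.

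**Figure D1:**
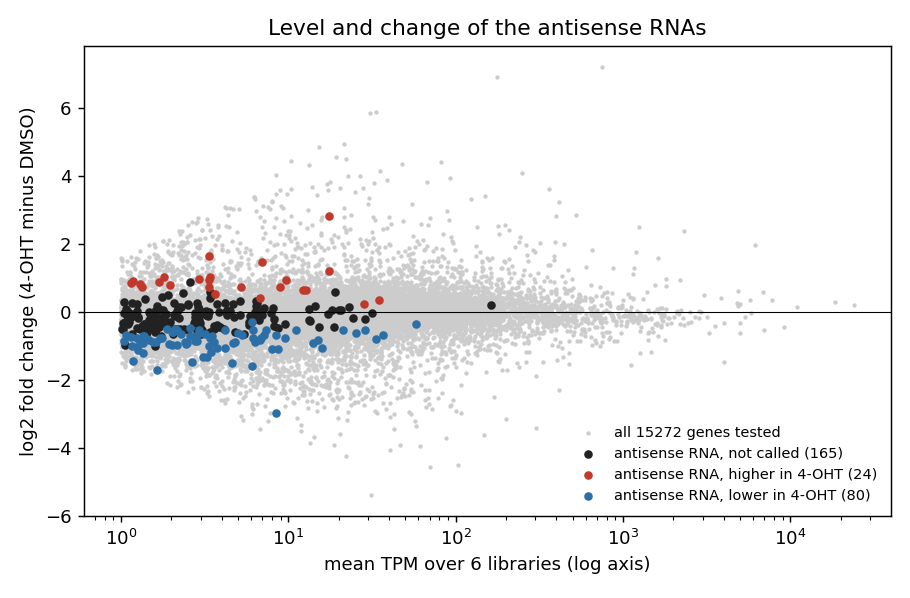
Mean level over the 6 libraries (TPM, log axis) against log2 fold change (4-OHT minus DMSO) of the 269 antisense RNAs, coloured by whether they were higher (24), lower (80) or not called (165), over all 15272 genes tested in grey. Most antisense RNAs lie between 1 and 10 TPM, and those called lower outnumber those called higher.

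The largest increase was that of SH3RF3-AS1 (chr2:109127327-109128930, minus strand, GRCh38), an RNA of 1 exon of 1604 bases whose start in GENCODE 29 is 418 bases from that of SH3RF3, with no exon base shared. It stood at 32.5, 30.8 and 31.5 TPM in the 4-OHT libraries and 3.26, 3.64 and 3.92 TPM in the DMSO libraries, 8.77-fold higher in 4-OHT (log2 fold change 2.83, SE 0.0872, adjusted p = 7.34e-07). All 4-OHT libraries lay far above all DMSO libraries, and the replicates of a group were close. SH3RF3, a scaffold protein of the JNK pathway with ubiquitin ligase activity, was at 26.9, 25.9 and 29.2 TPM in the 4-OHT libraries and 13.1, 13.4 and 11.4 TPM in the DMSO libraries (1.06, adjusted p = 6.37e-05). Antisense RNA and partner both rose. In 4-OHT the antisense RNA reached the level of its partner, while in DMSO it lay well below it. The mean log2 ratio of antisense to sense, each with 1 TPM added, was 0.20 in 4-OHT and -1.56 in DMSO, a difference of 1.77 with groups that did not overlap (exact permutation test, 2-sided, p = 0.1, the smallest that 3 against 3 libraries can give).

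WNT5A-AS1 (chr3:55487699-55488308, plus strand), a short RNA of 2 exons that share no base with exons of WNT5A, was at 24.4, 19.5 and 29.8 TPM in the 4-OHT libraries and 7.95, 14.7 and 8.34 TPM in the DMSO libraries (log2 fold change 1.20, SE 0.242, adjusted p = 0.00527). The groups did not overlap, although DMSO library 2 stood above the others of its group. WNT5A, a ligand of non-canonical Wnt signalling, was at 502, 510.0 and 527 TPM in the 4-OHT libraries and 187, 202 and 204 TPM in the DMSO libraries (1.37, adjusted p = 9.71e-07). SPRY4-AS1 (chr5:142325293-142672001, plus strand) was at 7.38, 4.12 and 3.51 TPM in the 4-OHT libraries and 1.82, 1.6 and 2.06 TPM in the DMSO libraries (log2 fold change 1.04, SE 0.240, adjusted p = 0.00984). Its highest library, 4-OHT 1, carried much of the group's spread, and all 3 lay above DMSO. With no filter on low values, which tests many more genes, its adjusted p was 0.055. SPRY4, a feedback inhibitor of RAS signalling, was at 87.6, 90.1 and 98.7 TPM in the 4-OHT libraries and 19.2, 19.4 and 17.2 TPM in the DMSO libraries (2.25, adjusted p = 8.92e-07). With 1 TPM added to each, the antisense to sense ratio of SPRY4 was lower in 4-OHT (difference -1.21) without overlap. That of WNT5A differed by -0.17 with overlap (exact permutation p = 0.7). The separation for SPRY4 depends on the added 1 TPM. Taken from the TPM values themselves, the SPRY4 ratios overlap, with 4-OHT library 1 above DMSO library 2.

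ZNF295-AS1, on chromosome 21 and without a partner entry, was at 4.51, 6.52 and 5.72 TPM in the 4-OHT libraries and 0.747, 0.987 and 1.64 TPM in the DMSO libraries (1.64, adjusted p = 0.000526). ZFPM2-AS1, on chromosome 8, was at 9.36, 12.4 and 10.5 TPM in the 4-OHT libraries and 3.06, 3.80 and 2.80 TPM in the DMSO libraries (1.48, adjusted p = 0.000151). ZFPM2, a cofactor of GATA factors, averaged under 1 TPM and was not tested, so this antisense RNA stood above its partner in both groups. ZMIZ1-AS1, on chromosome 10, was at 2.49, 2.90 and 2.94 TPM in the 4-OHT libraries and 1.02, 0.787 and 0.754 TPM in the DMSO libraries (1.03, adjusted p = 0.00125). ZMIZ1, a coactivator of transcription, averaged 37.2 ± 0.901 TPM in 4-OHT and 25.1 ± 2.64 TPM in DMSO (0.55, adjusted p = 0.00147). Both rose, and the antisense to sense ratio was higher in 4-OHT (difference 0.48). STXBP5-AS1, on chromosome 6, averaged 4.25 ± 0.596 TPM in 4-OHT and 1.66 ± 0.370 TPM in DMSO (0.98, adjusted p = 0.00218), and STXBP5, which binds syntaxins in vesicle release, 27.9 ± 1.52 TPM in 4-OHT and 18.1 ± 1.47 TPM in DMSO (0.60, adjusted p = 0.000889). MSC-AS1, on chromosome 8, averaged 13.1 ± 2.27 TPM in 4-OHT and 6.25 ± 0.673 TPM in DMSO (0.95, adjusted p = 0.00142), and MSC, a basic helix-loop-helix repressor, 16.0 ± 0.679 TPM in 4-OHT and 8.70 ± 1.22 TPM in DMSO (0.81, adjusted p = 0.000815). That the groups do not overlap in these 8 antisense RNAs was part of how they were chosen. Each of their partners that was tested rose as well.

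**Figure D2:**
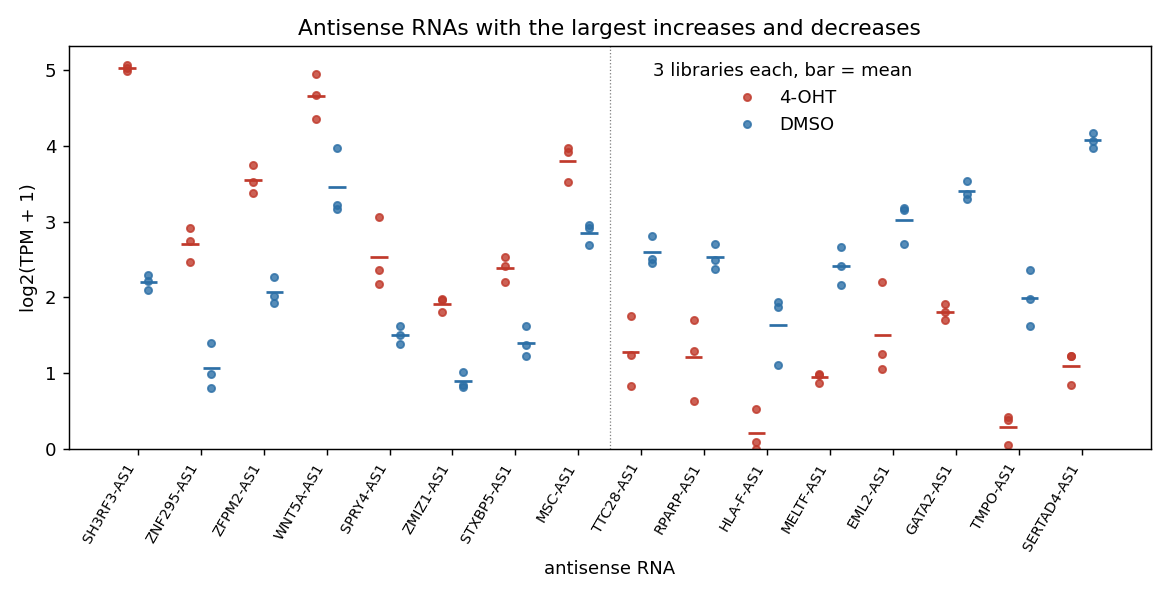
Level of the 8 antisense RNAs with the largest increases and the 8 with the largest decreases, as log2(TPM + 1), with a point for each of the 3 libraries of 4-OHT and DMSO and a bar at each mean. All 16 were chosen among those whose groups do not overlap, and SH3RF3-AS1 (2.83) and SERTAD4-AS1 (-2.98) show the largest log2 fold changes.

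The largest decrease was that of SERTAD4-AS1 (chr1:210231456-210234047, minus strand), at 1.33, 1.34 and 0.788 TPM in the 4-OHT libraries and 14.7, 15.8 and 17 TPM in the DMSO libraries, 13.7-fold lower in 4-OHT (log2 fold change -2.98, SE 0.143, adjusted p = 5.09e-06). SERTAD4, of the SERTA domain family, was at 0.507, 0.487 and 0.293 TPM in the 4-OHT libraries and 5.79, 5.42 and 5.56 TPM in the DMSO libraries (-2.21, adjusted p = 1.88e-05). The antisense RNA stood above its partner in every library of both groups. With 1 TPM added to each, the antisense to sense ratio was lower in 4-OHT (difference -0.77) without overlap. That difference depends on the added 1 TPM, since SERTAD4 lay below 1 TPM in 4-OHT. Ratios of the TPM values themselves overlap between the groups, so a larger fall of the antisense RNA than of SERTAD4 is not shown. TMPO-AS1 (chr12:98512973-98516422, minus strand) was at 0.0361, 0.338 and 0.298 TPM in the 4-OHT libraries and 4.13, 2.07 and 2.95 TPM in the DMSO libraries (log2 fold change -1.70, SE 0.237, adjusted p = 0.000927). All 3 4-OHT libraries lay below 1 TPM and all 3 DMSO libraries above 2 TPM, and the fold change on the log2(TPM + 1) scale understates a change at such levels: the means differ by 13.6-fold. TMPO, which encodes the lamina-associated LAP2 proteins, was at 16.8, 18.3 and 18.7 TPM in the 4-OHT libraries and 85.8, 90.5 and 93.4 TPM in the DMSO libraries (-2.26, adjusted p = 5.57e-07). The starts of this pair lie 910 bases apart in GENCODE 29 and 21.2% of the antisense RNA's exon bases lie against exons of TMPO. With 1 TPM added to each, the ratio differed by 0.56 with overlap between the groups (exact permutation p = 0.2). The sign of that difference depends on the added 1 TPM. Taken from the TPM values themselves, the antisense to sense ratio of every 4-OHT library lay below those of DMSO.

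GATA2-AS1, on chromosome 3, was at 2.26, 2.75 and 2.50 TPM in the 4-OHT libraries and 8.88, 10.6 and 9.25 TPM in the DMSO libraries (-1.59, adjusted p = 4.08e-05), and the transcription factor GATA2 averaged 12.2 ± 0.394 TPM in 4-OHT and 21.8 ± 5.88 TPM in DMSO (-0.75, adjusted p = 0.00886). The antisense RNA fell further than GATA2, with a ratio lower in 4-OHT (difference -0.84) without overlap. MELTF-AS1, on chromosome 3, was at 0.822, 0.959 and 0.985 TPM in the 4-OHT libraries and 5.31, 4.34 and 3.46 TPM in the DMSO libraries (-1.47, adjusted p = 0.000373), and MELTF, a transferrin family protein anchored to the membrane, averaged 1.67 ± 0.107 TPM in 4-OHT and 4.72 ± 1.56 TPM in DMSO (-1.07, adjusted p = 0.00387). EML2-AS1, on chromosome 19, was at 3.59, 1.37 and 1.07 TPM in the 4-OHT libraries and 7.92, 5.54 and 8.05 TPM in the DMSO libraries (-1.52, adjusted p = 0.00562). Of its exon bases 95.0% lie against exons of EML2, a microtubule-binding protein that averaged 46.0 ± 4.63 TPM in 4-OHT and 64.5 ± 6.05 TPM in DMSO (-0.48, adjusted p = 0.00509).

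HLA-F-AS1, on chromosome 6, was at 0.441, 0 and 0.0569 TPM in the 4-OHT libraries and 1.14, 2.83 and 2.67 TPM in the DMSO libraries (-1.43, adjusted p = 0.00518), so 1 4-OHT library is listed at 0. HLA-F, a non-classical MHC class I gene, averaged 6.35 ± 0.990 TPM in 4-OHT and 14 ± 1.71 TPM in DMSO (-1.03, adjusted p = 0.000701). TTC28-AS1, on chromosome 22, was at 1.35, 2.37 and 0.777 TPM in the 4-OHT libraries and 4.49, 4.69 and 6.03 TPM in the DMSO libraries (-1.32, adjusted p = 0.00385), while its partner TTC28 averaged 3.95 ± 1.88 TPM in 4-OHT and 4.91 ± 1.68 TPM in DMSO and did not pass the test (-0.28, adjusted p = 0.51). RPARP-AS1, on chromosome 10 and without a partner entry, was at 0.541, 2.25 and 1.45 TPM in the 4-OHT libraries and 4.20, 5.54 and 4.64 TPM in the DMSO libraries (-1.32, adjusted p = 0.00613). Of the partners of these 8 decreases 6 fell, 1 was not called and 1 has no entry.

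The antisense RNAs were then counted in 4 lists of partner genes, which do not hold every gene of their kind. For comparison, 9.69% of genes tested at 1 to 10 TPM were called higher and 29.2% lower. No list was tested against these shares. A list drawn up for cell division, DNA replication, repair and chromatin matched 14, of which 2 rose (14.3%), 4 fell (28.6%) and 8 did not pass the test. The median of this list was -0.33, against -0.29 over all antisense RNAs and -0.23 over genes tested at 1 to 10 TPM. It does not hold HMGA2, and it holds partners such as KIF9 and MCM3AP that have other known roles. TMPO-AS1, MCM3AP-AS1, KIF9-AS1 (-0.91, adjusted p = 0.00781) and SPAG5-AS1 (-0.83, adjusted p = 0.046) fell, and OIP5-AS1 and CCDC18-AS1 rose. KIF9-AS1 and SPAG5-AS1, like TIPARP-AS1 next, were named after their values were seen. SPAG5, which encodes a protein of the mitotic spindle, fell further than its antisense RNA (-2.05, adjusted p = 1.94e-06). KIF9, a kinesin of cilia and flagella, did not pass the test (0.16, adjusted p = 0.405). TIPARP, a mono-ADP-ribosyltransferase induced by the aryl hydrocarbon receptor, rose (1.28, adjusted p = 7.38e-06), while TIPARP-AS1 was not called (-0.16, adjusted p = 0.757).

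Among the 263 pairs, the change of the antisense to sense ratio was largest at the INK4 locus. CDKN2B-AS1 (chr9:21994778-22121097, plus strand) was at 0.424, 0.740 and 1.46 TPM in the 4-OHT libraries and 1.35, 2.43 and 2.06 TPM in the DMSO libraries (log2 fold change -0.67, SE 0.258, adjusted p = 0.0673). The groups overlapped, since 4-OHT library 3 stood above DMSO library 1, and the antisense RNA did not pass the test. It did pass without 4-OHT replicate 3 (adjusted p = 0.0268, within a range of 0.0268 to 0.206 over the alternatives). CDKN2B, which encodes the kinase inhibitor p15, was at 161, 158 and 153 TPM in the 4-OHT libraries and 6.40, 6.40 and 6.62 TPM in the DMSO libraries (4.41, adjusted p = 2.8e-08). The mean log2 ratio of antisense to sense was -6.44 in 4-OHT and -1.36 in DMSO, a difference of -5.08 without overlap (exact permutation p = 0.1). Exons of this pair share no base. MCM3AP-AS1 was at 2.31, 1.6 and 2.07 TPM in the 4-OHT libraries and 3.76, 2.82 and 2.90 TPM in the DMSO libraries (-0.48, adjusted p = 0.046), a call lost on leaving out any 1 of the 6 libraries (adjusted p = 0.0516 to 0.139) and under both scalings. MCM3AP, an export factor for messenger RNA, averaged 63.5 ± 3.48 TPM in 4-OHT and 48.0 ± 5.44 TPM in DMSO (0.40, adjusted p = 0.00914).

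A list of HOX clusters, developmental factors and zinc finger genes matched 34 antisense RNAs, of which 1 rose (2.94%), 8 fell (23.5%) and 25 did not pass the test (median -0.31). PAX8-AS1 rose (0.66, adjusted p = 0.00251), together with PAX8 (0.90, adjusted p = 0.00873), a thyroid and kidney factor. Those that fell were GATA2-AS1, TBX2-AS1, NR2F1-AS1, FOXD2-AS1, TBX5-AS1, FOXN3-AS1, ZNF710-AS1 and ZNF436-AS1. The last 4 of these and PAX8-AS1 were named after their values were seen. TBX5-AS1 stood at 16.1, 8.99 and 6.49 TPM in the 4-OHT libraries and 22.1, 20.9 and 21.4 TPM in the DMSO libraries (-1.05, adjusted p = 0.0157), and TBX5, a factor of heart and forelimb, fell as well (-1.24, adjusted p = 4.28e-05). NR2F1-AS1 was at 5.28, 4.62 and 3.24 TPM in the 4-OHT libraries and 6.75, 8.46 and 8.78 TPM in the DMSO libraries (-0.75, adjusted p = 0.00986, or 0.0525 under quantile normalization), below the DMSO range in every 4-OHT library. NR2F1, an orphan nuclear receptor, averaged 2.52 ± 0.506 TPM in 4-OHT and 6.76 ± 0.687 TPM in DMSO (-1.15, adjusted p = 0.000661). FOXD2-AS1 was at 0.631, 0.569 and 0.739 TPM in the 4-OHT libraries and 1.74, 1.86 and 2.19 TPM in the DMSO libraries (-0.83, adjusted p = 0.00462), beside a forkhead gene, FOXD2, that averaged 0.187 TPM in 4-OHT and 0.250 TPM in DMSO and was not tested.

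The 3 HOX antisense RNAs were not called. HOXB-AS1 averaged 3.03 ± 1.21 TPM in 4-OHT and 4.45 ± 1.47 TPM in DMSO (-0.44, adjusted p = 0.207) and HOXC-AS1 0.701 ± 0.613 TPM in 4-OHT and 1.36 ± 0.596 TPM in DMSO (-0.50, adjusted p = 0.215), and HOXD-AS2, named after its values were seen, had a log2 fold change of -0.34 (adjusted p = 0.418). Of all 18 antisense RNAs whose symbol begins with ZNF, on that list or not, 1 rose (5.56%), 2 fell (11.1%) and 15 were not called. The one that rose, ZNF295-AS1, and ZNF451-AS1, which was not called, are not on the list. ZEB1-AS1 was at 4.71, 2.28 and 5.4 TPM in the 4-OHT libraries and 6.15, 6.65 and 7.57 TPM in the DMSO libraries (log2 fold change -0.66, SE 0.250, adjusted p = 0.0652). All 4-OHT libraries lay below DMSO, but library 2 of 4-OHT was far below the other two, and the RNA was called only without 4-OHT replicate 3 among the alternatives (adjusted p = 0.035). ZEB1, a repressor of epithelial genes, averaged 74.3 ± 4.15 TPM in 4-OHT and 44.1 ± 3.36 TPM in DMSO and rose (0.74, adjusted p = 0.000153). NR2F2-AS1 averaged 15.2 ± 0.607 TPM in 4-OHT and 13.5 ± 1.16 TPM in DMSO and was not called (0.17, adjusted p = 0.148), although both alternative scalings called it higher, with 0.28 by median of ratios (adjusted p = 0.0304) and 0.30 by quantiles (adjusted p = 0.0278). NR2F2, the orphan receptor COUP-TFII, fell (-0.32, adjusted p = 0.0174).

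A list of signalling, secreted and matrix genes matched 15 antisense RNAs, of which 3 rose, 6 fell and 6 did not pass the test, with a median of -0.06. The 3 that rose, WNT5A-AS1, SPRY4-AS1 and COL4A2-AS1 (0.91, adjusted p = 0.00675), had partners that rose. COL4A2, named with its antisense RNA after the values were seen, is a chain of basement membrane collagen (0.87, adjusted p = 3.85e-06). LOXL1-AS1 was at 8.79, 9.95 and 9.53 TPM in the 4-OHT libraries and 18.6, 20.1 and 17.5 TPM in the DMSO libraries (-0.92, adjusted p = 0.000136), with every 4-OHT library below DMSO. LOXL1, which crosslinks elastin, averaged 82.4 ± 2.41 TPM in 4-OHT and 186 ± 15.4 TPM in DMSO (-1.16, adjusted p = 9.63e-06), and the ratio of the pair differed by 0.24 with overlap. PTPRG-AS1 and FGD5-AS1 fell as well, as did TRAF3IP2-AS1 (-1.06, adjusted p = 0.0233), ITGA9-AS1 (-0.89, adjusted p = 0.00472) and PTOV1-AS2 (-0.68, adjusted p = 0.01), named after their values were seen. HAS2, the hyaluronan synthase, rose (2.03, adjusted p = 7.69e-05), while HAS2-AS1, also named afterwards, averaged 2.21 ± 0.717 TPM in 4-OHT and 1.34 ± 0.482 TPM in DMSO and was not called (0.45, adjusted p = 0.142). MAPKAPK5-AS1 averaged 16.8 ± 1.5 TPM in 4-OHT and 17.6 ± 1.41 TPM in DMSO and was not called (-0.065, turning to 0.0495 under median-of-ratios scaling and 0.045 under quantile normalization).

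A list of RNA processing, translation, proteasome and mitochondrial genes, which also holds partners of other roles such as ATP2A1, matched 26 antisense RNAs. Of these 1 rose (3.85%), 9 fell (34.6%) and 16 did not pass the test (median -0.35). SLC25A25-AS1 rose (0.73, adjusted p = 0.00972), beside a mitochondrial carrier for ATP and phosphate that rose too (0.31, adjusted p = 0.00729). RPARP-AS1 and TTC28-AS1 fell most, but RPARP has no entry, and the list does not establish such a role for RPARP or TTC28. ATP2A1-AS1 (-1.22, adjusted p = 0.00547), EIF1B-AS1 (-1.0, adjusted p = 0.00676) and PSMB8-AS1 (-0.53, adjusted p = 0.0223) fell while EIF1B, a translation initiation factor, fell less (-0.20, adjusted p = 0.0178) and ATP2A1, the calcium pump of fast muscle (-0.28, adjusted p = 0.207), and PSMB8, a subunit of the immunoproteasome (0.058, adjusted p = 0.506), were not called. These and SLC25A25-AS1 were named after their values were seen. PSMA3-AS1, whose partner encodes an alpha subunit of the proteasome core, averaged 23.1 ± 2.74 TPM in 4-OHT and 25.9 ± 2.46 TPM in DMSO and was not called (-0.16, adjusted p = 0.25). The other 180 antisense RNAs, outside these lists, rose in 17 (9.44%) and fell in 53 (29.4%), with a median of -0.29.

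VIM-AS1 had the highest mean over the 6 libraries, at 54.9, 50.2 and 409.6 TPM in the 4-OHT libraries and 45.1, 376 and 44.0 TPM in the DMSO libraries (log2 fold change 0.20, SE 1.06, adjusted p = 0.895). A single library of each group, 4-OHT 3 and DMSO 2, stood several-fold above the other 4, and the groups overlapped. The mean of 163 TPM rests on these, since FGD5-AS1 stood above VIM-AS1 in DMSO libraries 1 and 3. The direction rested on these libraries: leaving out 4-OHT replicate 3 gave a log2 fold change of -0.78 (adjusted p = 0.527), and leaving out DMSO replicate 2 gave 1.21 (adjusted p = 0.315). Of its exon bases 32.2% lie against exons of VIM, the intermediate filament protein vimentin, which stood at 11598, 11631 and 11381 TPM in the 4-OHT libraries and 10674, 10369 and 10153 TPM in the DMSO libraries with no such jump in either library. How reads of the shared stretch were divided between both genes was not tested.

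FGD5-AS1 was at 49.5, 47.8 and 55.3 TPM in the 4-OHT libraries and 61.1, 69.0 and 65.3 TPM in the DMSO libraries (-0.35, adjusted p = 0.00651), with all 4-OHT libraries below DMSO. FGD5, an exchange factor of endothelial cells, averaged 0.0536 TPM in 4-OHT and 0.00147 TPM in DMSO, so this antisense RNA stood at a high level beside a gene near 0. MAGI2-AS3 was at 22.0, 26.9 and 36.9 TPM in the 4-OHT libraries and 47.0, 44.3 and 44.4 TPM in the DMSO libraries (-0.68, adjusted p = 0.0129, or 0.0726 with no filter on low values), also without overlap, and MAGI2, a scaffold of cell junctions, averaged 3.36 ± 0.545 TPM in 4-OHT and 4.62 ± 0.206 TPM in DMSO (-0.37, adjusted p = 0.0508). SBF2-AS1 was at 18.9, 26.7 and 27.2 TPM in the 4-OHT libraries and 42.8, 42.5 and 43.2 TPM in the DMSO libraries (-0.81, adjusted p = 0.00202), while SBF2, a myotubularin-related protein, was not called (-0.11, adjusted p = 0.441), and the ratio was lower in 4-OHT (difference -0.70) without overlap. SVIL-AS1 was at 36.9, 38.0 and 43.0 TPM in the 4-OHT libraries and 30.7, 33.0 and 27.4 TPM in the DMSO libraries (0.36, adjusted p = 0.0138, or 0.0542 with no filter). SVIL, the actin-binding supervillin, rose further, averaging 77.5 ± 8.05 TPM in 4-OHT and 21.7 ± 3.44 TPM in DMSO (1.79, adjusted p = 2.64e-05), and the ratio was lower in 4-OHT (difference -1.43).

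Whether antisense RNA and partner changed together was examined over the 234 pairs in which both were tested. Of these pairs 15 rose together and 31 fell together, and in 14 the calls were opposite: 4 antisense RNAs rose beside a partner that fell and 10 fell beside a partner that rose. Beside a partner that was not called, 2 antisense RNAs rose and 30 fell. Beside an antisense RNA that was not called, 39 partners rose and 27 fell. In the other 76 pairs neither was called. The antisense RNAs of these 234 pairs were called higher in 8.97% and lower in 30.3%. How many joint calls the shares of both sides would give by themselves was not computed. Partners as a class were called higher in 27.5% and lower in 26.2% of 233 genes, with a median of 0.005 and a median level of 25.6 TPM. Their balance of directions was not followed through the scalings, and no difference from the antisense RNAs was tested.

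Across the 234 pairs the log2 fold changes of antisense RNA and partner had a Pearson r of 0.40 and a Spearman rho of 0.38, and 150 pairs had the same sign. These are descriptions across genes, which are not independent replicates, and both members of a pair share the 6 libraries and, in 166 of the pairs, stretches of exon. With the authors' strand setting not given in the sources used here, reads of a shared stretch may not be told apart. In the 65 pairs without a shared exon base r was 0.29 and rho 0.35, with 36 of the same sign, against 0.42 and 0.38 in the 166 that share some. Under median-of-ratios scaling 35 pairs were called in the same direction and 13 in opposite ones, and under quantile normalization 35 and 11.

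By position in GENCODE 29, 94 pairs were head-to-head, meaning on opposite strands with 5′ ends within 1000 bases, 164 others had overlapping gene bodies and 2 did not overlap. Head-to-head antisense RNAs rose in 4 (4.26%) and fell in 29 (30.9%), with a median of -0.34. Those with overlapping bodies rose in 18 (11.0%) and fell in 47 (28.7%), with a median of -0.25. Genes tested at 1 to 10 TPM were called higher in 9.69% and lower in 29.2%. With both tested, r was 0.52 and rho 0.53 over 92 head-to-head pairs and 0.34 and 0.32 over 138 pairs with overlapping bodies. Of the head-to-head pairs 2 rose together and 14 fell together, 1 antisense RNA rose beside a partner that fell and 3 fell beside a partner that rose. Among pairs with overlapping bodies 12 rose together and 17 fell together, and the opposite calls were 3 and 7. The 32 head-to-head pairs that share no exon base had an r of 0.50 and a rho of 0.47, with 17 of the same sign. The difference between both arrangements was not tested, and the limit of 1000 bases sets their numbers (70 head-to-head pairs at 500 bases and 118 at 2000).

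**Figure D3:**
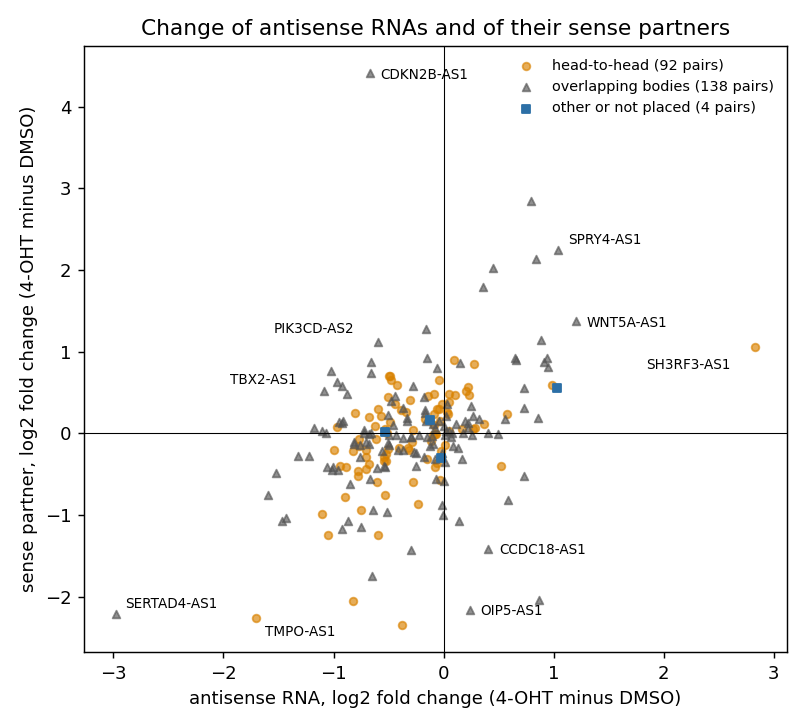
Log2 fold change (4-OHT minus DMSO) of each antisense RNA against that of its sense partner for the 234 pairs in which both were tested, marked by arrangement. The points lean to the diagonal (r = 0.40), with CDKN2B-AS1 far off it at -0.67 against 4.41 for CDKN2B.

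5 pairs with opposite calls were followed by the widest difference between antisense RNA and partner. Since this choice used both changes, the differences between their groups are descriptions. OIP5-AS1 (chr15:41283990-41309737, plus strand) was at 29.9, 32.7 and 30.3 TPM in the 4-OHT libraries and 26.0, 25.3 and 27.1 TPM in the DMSO libraries (log2 fold change 0.24, SE 0.0641, adjusted p = 0.0191), a small increase without overlap. OIP5, a centromere protein needed to load CENP-A, was at 2.74, 3.79 and 1.98 TPM in the 4-OHT libraries and 19.3, 13 and 15.9 TPM in the DMSO libraries (-2.16, adjusted p = 0.000147). The antisense to sense ratio was higher in 4-OHT (difference 2.40). The call of OIP5-AS1 was lost without 4-OHT replicate 2 (adjusted p = 0.0635), DMSO replicate 1 (0.0501) or DMSO replicate 2 (0.0619). CCDC18-AS1, on chromosome 1, was at 7.83, 8.50 and 7.19 TPM in the 4-OHT libraries and 5.99, 5.30 and 5.70 TPM in the DMSO libraries (log2 fold change 0.41, SE 0.104, adjusted p = 0.015), and CCDC18, a coiled-coil protein, at 3.11, 3.86 and 3.46 TPM in the 4-OHT libraries and 11.5, 12.2 and 9.13 TPM in the DMSO libraries (-1.41, adjusted p = 0.000145). This call was lost without replicate 2 of 4-OHT (adjusted p = 0.051) or of DMSO (0.0509).

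In the other direction, TBX2-AS1, on chromosome 17, was at 6.63, 5.55 and 3.64 TPM in the 4-OHT libraries and 11.2, 12.0 and 13.2 TPM in the DMSO libraries (-1.09, adjusted p = 0.00244). TBX2, a T-box repressor known to hold back senescence genes, averaged 55.4 ± 3.89 TPM in 4-OHT and 38.4 ± 1.42 TPM in DMSO (0.52, adjusted p = 0.000714). The groups did not overlap for either, and the ratio was lower in 4-OHT (difference -1.61). PTPRG-AS1, on chromosome 3, was at 0.506, 0.512 and 0.387 TPM in the 4-OHT libraries and 2.04, 2.60 and 1.40 TPM in the DMSO libraries (-1.02, adjusted p = 0.00497), while the receptor phosphatase PTPRG averaged 27.8 ± 3.41 TPM in 4-OHT and 15.9 ± 0.504 TPM in DMSO (0.76, adjusted p = 0.000548). PIK3CD-AS2, on chromosome 1, was at 1.09, 1.37 and 1.86 TPM in the 4-OHT libraries and 2.93, 2.43 and 2.65 TPM in the DMSO libraries (-0.60, adjusted p = 0.0229), and the phosphoinositide kinase subunit PIK3CD averaged 50.9 ± 2.40 TPM in 4-OHT and 23.0 ± 2.36 TPM in DMSO (1.12, adjusted p = 4.2e-05). The ratio was lower in 4-OHT for PTPRG (difference -1.78) and for PIK3CD (difference -1.71). The call of PIK3CD-AS2 was lost on leaving out 4-OHT replicate 1 (adjusted p = 0.0652) or 2 (0.0593) or DMSO replicate 1 (0.0729) or 3 (0.0576), and under quantile normalization (0.114).

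**Figure D4:**
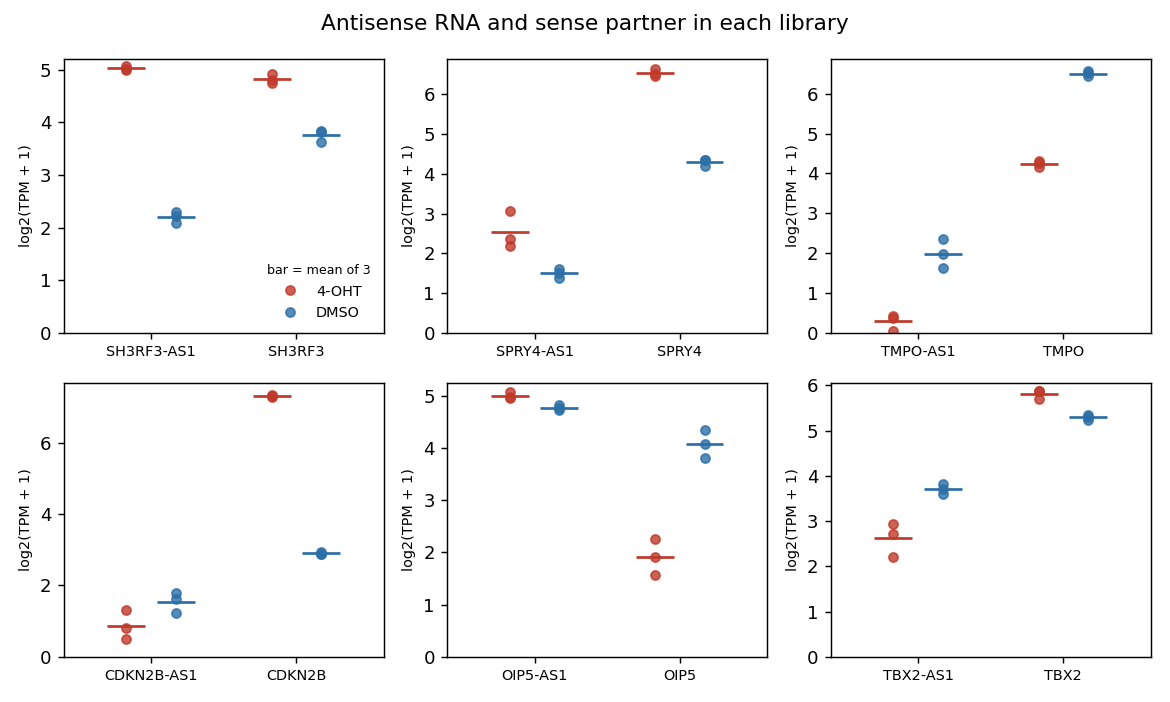
Levels of antisense RNA and sense partner as log2(TPM + 1) in each of the 3 libraries of 4-OHT and DMSO, with a bar at each mean, for pairs described in the text. In OIP5 and CDKN2B the partner moved by over 2 log2 units while the antisense RNA moved by 0.24 and -0.67.

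Over the 34 pairs named here by rule, the antisense to sense ratio of the 3 4-OHT libraries did not overlap that of the 3 DMSO libraries in 23, and over all 263 pairs in 118 (44.9%). The 34 include the 5 chosen for their opposite calls. They also include the largest increases and decreases that have a partner entry, chosen for called changes without overlap. Since those values enter the ratio, the share among the 34 is not a result beside that of all pairs. No such difference can pass a threshold of 0.05 with 3 against 3 libraries, whose smallest exact permutation p is 0.1. Antisense RNAs that lie along the exons of a far more abundant partner are harder to read, and 53 share over 20% of their exon bases with it. IER3-AS1, named after its values were seen, rose with IER3 (0.79, adjusted p = 0.0304 for the antisense RNA and 2.85, adjusted p = 3.97e-08 for IER3, an early response gene) but stood at 0.375% of its level, with 68.1% of its exon bases shared. Whether reads of IER3 were counted for it was not tested.

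At the threshold of membership, the antisense RNAs just inside were ZNF793-AS1, with a mean of 1.02 TPM, and HOXC-AS1, with 1.03 TPM. ZNF793-AS1 averaged 0.615 ± 0.159 TPM in 4-OHT and 1.43 ± 0.988 TPM in DMSO and was not called (-0.51, adjusted p = 0.219), although it was without DMSO replicate 1 (adjusted p = 0.0452). Just outside were NFYC-AS1 at 0.996 TPM, with 0.628, 1.48 and 0.917 TPM in the 4-OHT libraries and 0.636, 0.860 and 1.45 TPM in the DMSO libraries, and NAPA-AS1 at 0.991 TPM.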

How the data were processed

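The deposited table holds TPM made by the authors, with 59050 entries by gene symbol in 6 libraries whose sums run from 998367 to 998843. Trim Galore 0.6.6, STAR, StringTie and GRCh38 are named in the submitters' processing notes, and per the labels' protocols 1 µg of total RNA entered the KAPA RNA HyperPrep kit. The gene annotation and the counting strand are not given in the sources used. DMSO replicate 3 was used as TPM like the others; its column as deposited was classed as a score only because 1 value lay slightly below 0, and that value was set to 0.

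All genes whose mean reached 1 TPM entered a limma fit (limma 3.58.1, R 4.3.3; lmFit, then eBayes with trend) of log2(TPM + 1), 2-sided, with Benjamini-Hochberg adjustment over all 15272 genes and a threshold of 0.05. This scale understates the change of low genes. Ratios of antisense to sense, each with 1 TPM added, were compared by an exact permutation test over libraries. Ratios that involve RNAs near or below 1 TPM depend on that addition. Positions and exons come from GENCODE 29 on GRCh38, where 11 antisense RNAs were found by an older symbol. Scaling, filter, pseudocount, variance trend, replicate block, distance limit and libraries were varied in turn.

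Antisense RNAs were named by a rule: a list of core genes, the 8 largest increases and decreases among those called without overlap, the 5 most abundant, up to 5 called opposite to the partner, and those at the threshold of 1 TPM. Those named after their values were seen were not followed through the alternatives. Members, lists and this rule were chosen with earlier results of these data known. Python 3.11.15, pandas 2.3.3, numpy 2.4.6, scipy 1.17.1 and matplotlib 3.10.9 were used.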

Additional observations from a re-analysis of the deposited data

How the results depend on the processing

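The number of antisense RNAs called (104, 24 higher and 80 lower) changed most with the filter on low values. With no filter it was 61 (14 higher and 47 lower), and with a mean of at least 5 TPM, which leaves fewer antisense RNAs to test, 36 (11 higher and 25 lower). Quantile normalization left 47 lower, and the cause was not tested. Leaving out each library in turn gave 84 to 95 called, 19 to 23 higher and 62 to 73 lower, and 23 to 28 named pairs whose ratio did not overlap. Libraries of the same number did not deviate together (correlations of 0.0475, 0.0055 and 0.0066), so no pairing by number was seen. With 3 libraries in each group this cannot exclude one, and the labels do not state any. With a replicate block 97 were called (23 higher and 74 lower), and MCM3AP-AS1 (adjusted p = 0.0528), OIP5-AS1 (0.0516) and PIK3CD-AS2 (0.0511) lost their calls.

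Of 512 values for the 38 named antisense RNAs under the alternatives, 475 kept their direction and their side of the threshold, 27 lost the call, 5 gained it and 5 changed sign. MAPKAPK5-AS1, not called, turned to 0.0495 under median-of-ratios scaling and to 0.045 under quantile normalization. VIM-AS1 turned to -0.78 without 4-OHT replicate 3, -0.30 without DMSO replicate 1 and -0.32 without DMSO replicate 3, and was at 1.21 without DMSO replicate 2. Of 29 named antisense RNAs that were called, 21 stayed called under each alternative run. Log2 fold changes of RNAs near 1 TPM depend on the pseudocount: TMPO-AS1 had -3.40 with 0.1 TPM added and -0.62 with 5 TPM added, and stayed called.

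Depth is unknown for these values. Of 96 antisense RNAs at 1 to 2 TPM, 7 were called higher (7.29%) and 22 lower (22.9%). The shares of all genes at 1 to 2 TPM were not computed.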

Other observations

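Antisense RNAs outside the rule for named genes, chosen here after their values were seen, add further pairs. HMGA2-AS1 averaged 2.49 ± 0.476 TPM in 4-OHT and 0.880 ± 0.184 TPM in DMSO (0.89, adjusted p = 0.00529) beside HMGA2, a chromatin protein of senescence-associated foci, which rose too (1.15, adjusted p = 8.37e-07). TM4SF19-AS1 averaged 1.96 ± 0.682 TPM in 4-OHT and 0.642 ± 0.257 TPM in DMSO (0.84, adjusted p = 0.0205) beside a tetraspanin-like membrane protein that rose further (2.14, adjusted p = 3.73e-05). SLC2A1-AS1 averaged 0.436 ± 0.0623 TPM in 4-OHT and 2.10 ± 0.253 TPM in DMSO (-1.11, adjusted p = 0.00127), and SLC2A1, the glucose transporter GLUT1, fell with it (-0.99, adjusted p = 5.1e-05). Among the abundant antisense RNAs, TPT1-AS1 averaged 19.9 ± 0.820 TPM in 4-OHT and 31.0 ± 1.34 TPM in DMSO (-0.62, adjusted p = 0.000254) and SLC9A3-AS1 17.2 ± 2.55 TPM in 4-OHT and 25.3 ± 1.30 TPM in DMSO (-0.54, adjusted p = 0.00589), while AGAP2-AS1 averaged 26.5 ± 1.67 TPM in 4-OHT and 30.8 ± 3.31 TPM in DMSO and was not called (-0.21, adjusted p = 0.104). NUTM2A-AS1 (24.4 ± 3.0 TPM in 4-OHT and 21.8 ± 2.15 TPM in DMSO) and NUTM2B-AS1 (20.9 ± 2.39 TPM in 4-OHT and 20.4 ± 3.10 TPM in DMSO), copies of one another whose reads may have been split between them, were not called either.

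The remaining opposite calls included CIRBP-AS1, which rose (0.73, adjusted p = 0.0315) while the cold-inducible RNA-binding protein CIRBP fell (-0.52, adjusted p = 0.00329), and ST20-AS1, which rose (0.52, adjusted p = 0.0259) while ST20 fell (-0.40, adjusted p = 0.0146). ELOA-AS1 fell (-0.97, adjusted p = 0.0295) while ELOA, a subunit of the elongation factor elongin, rose (0.63, adjusted p = 0.00623), and 57.2% of its exon bases lie against exons of ELOA. TRAM2-AS1 fell (-0.68, adjusted p = 0.00149) beside TRAM2, an endoplasmic reticulum protein of collagen synthesis that rose by 0.21 (adjusted p = 0.00614), with no exon base shared. SLC8A1-AS1 spread widely within its group, at 1.12, 3.15 and 7.26 TPM in the 4-OHT libraries and 1.26, 1.91 and 0.808 TPM in the DMSO libraries, and was not called (0.87, adjusted p = 0.167).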
